A study of Drosophila melanogaster and Drosophila simulans and Drosophila erecta with 10 samples.

Results

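The testis transcriptome of Drosophila melanogaster was compared between flies that carried a miR-983 knockout and control flies, with 2 libraries of each genotype. These libraries are 4 of the 10 samples of the series, chosen by species and genotype, and their table lists 7326 genes. The 4 libraries came from testes of adult males aged 3 to 5 days, from flies kept at 25 °C. The labels name the genotypes miR-983 mutant and control, and the 2 libraries of each are biological replicates by the design text. The other samples are control and miR-983 knockout testes of Drosophila simulans, with 2 libraries of each and 6744 genes in a table of their own, and 1 small RNA library each from D. erecta and D. sechellia testes. How the knockout line was made, its genetic background and the source of the control line are not stated in what was used here, so the knockout and any other difference between the lines cannot be told apart.

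MicroRNAs are short RNAs that guide Argonaute proteins to matching sites in messenger RNAs, which lowers the stability or the translation of those messengers. The testis of a fly holds stem cells, spermatogonia, spermatocytes, which transcribe most of the genes of sperm formation, and spermatids, which transcribe little, together with somatic cyst cells. It expresses many young genes, testis-specific paralogs of common protein subunits and long non-coding RNAs (lncRNAs), and evolutionarily young microRNAs are often found there.

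The values are log2 expression values, 1 per gene and library. Each is above 1, the lowest being 1.00 in each library after rounding, and the median was 3.23 and 3.22 in knockout and 3.24 in each of the control libraries. Read totals are not given, so the depth of the libraries is unknown, and a gene near the floor of 1 may have fallen by more than its values show. The table holds 0 entries under mir-983-1, mir-983-2, white or yellow, so loss of the microRNA could not be checked in it. Presence in every library holds for all listed genes and does not mark the tissue, so for a testis gene the level is given. betaTub85D, the tubulin of the sperm tail, had log2 values of 9.32 and 9.13 in knockout and 9.22 and 9.12 in control testes.

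The first question was which transcripts differed between knockout and control testes. Of the 7326 genes, 167 changed, which is 2.28% (limma, two-sided, Benjamini-Hochberg adjusted p under 0.05). In knockout testes 77 rose (1.05%) and 90 fell (1.23%), and 32 of the changed genes (0.437% of all genes) differed by at least 2-fold, 20 of them upward and 12 downward. In all 167 genes the 2 knockout libraries lay on one side of both control libraries, as they did in 42.3% of all genes. The changes were small: the median size among the 167 was 0.62 on the log2 scale, against 0.07 over all genes, and the smallest was 0.30. The median difference between replicates was 0.10 for knockout and 0.08 for control libraries. An unadjusted p under 0.05 was reached by 930 genes (12.7%). Leaving out any 1 of the 4 libraries kept 88 of the 167 calls in every case, 39 rises and 49 falls, and these 88 include all 32 genes that differed by at least 2-fold. Another 79 calls were lost in at least 1 such fit, 4 of them in all 4. Without control replicate 1 the count was 304, with control replicate 2 left out it was 259, and without knockout replicate 2 the rises numbered 47.

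**Figure D1:**
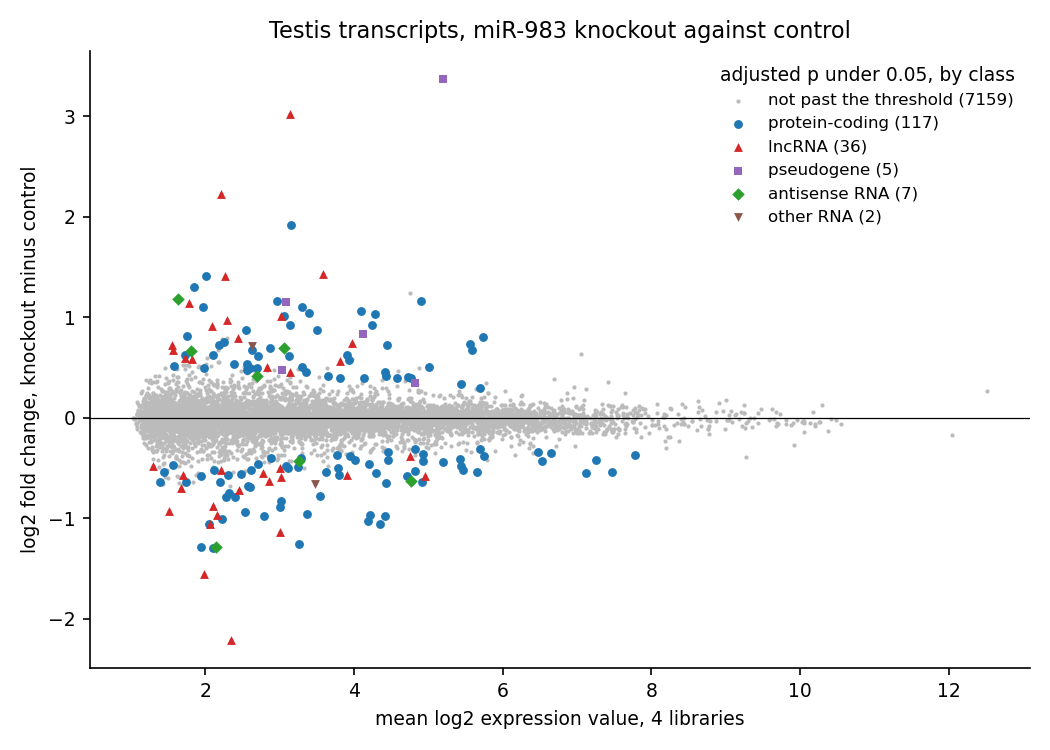
Log2 fold change (knockout minus control) against the mean log2 expression value of the 4 libraries, 1 point per gene, with the 167 genes past the limma threshold coloured by gene class. Non-coding transcripts (triangles, squares and diamonds) hold the extremes in both directions, at 3.37 and 3.02 above and -2.21 below 0.

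The largest changes were those of non-coding transcripts, and the values of single libraries show how each arose. The pseudogene CR33319 had log2 values of 6.66 and 7.12 in knockout testes, against 3.37 and 3.66 in control testes, which is 10.3-fold higher. On the log2 scale the rise was 3.37 ± 0.15 (moderated SE of limma, n = 2 each, adjusted p by limma = 0.000102). lncRNA:CR43414 had 4.60 and 4.70 in knockout and 2.13 and 1.14 in control testes. Its knockout libraries lie close together and its control libraries are 0.99 apart, so the size of this rise depends on which control is used, at 2.52 without control replicate 2 and 3.51 without control replicate 1. lncRNA:CR41443 stood near the floor of the table in controls, with 3.18 and 3.48 in knockout and 1.06 and 1.15 in control testes. Among falls, lncRNA:CR43839 had 1.28 and 1.20 in knockout testes, against 3.39 and 3.52 in controls, and lncRNA:CR44091 had 1.24 and 1.18, against 2.92 and 2.61. Both lie near the floor in the knockout, where a further fall could not be seen.

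Protein-coding genes made up 14 of the 25 largest rises and 17 of the 25 largest falls. They are 88.6% of the genes tested and 70.1% of the changed genes. The largest coding rise was that of CG7194, with log2 values of 4.02 and 4.21 in knockout and 2.11 and 2.29 in control testes, a 3.77-fold difference. CG8100 had 2.56 and 2.47 in knockout and 1.43 and 1.40 in control testes. Dpit47, a co-chaperone of Hsp90 that also binds DNA polymerase alpha, had 3.47 and 3.67 against 2.49 and 2.62, a rise by 1.01 ± 0.10 on the log2 scale (SE; limma adjusted p = 0.00203). In each of the 3 genes the genotypes are separated by far more than the replicates. CG10513 rose by 0.92 ± 0.12, CG16772 by 1.03 ± 0.15 and CG17177 by 1.04 ± 0.10. In CG16772 the control libraries, at 4.03 and 3.50, lie further apart than the knockout libraries, at 4.85 and 4.75. CG17177 overlaps another annotated gene.

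Among the coding falls, Mccc1, a subunit of the mitochondrial enzyme that breaks down leucine, had log2 values of 1.58 and 1.33 in knockout testes, against 2.84 and 2.66 in controls. The other 8 measured genes of branched-chain amino acid breakdown did not pass, and the median over the list of 9 was -0.02, against -0.01 over all genes. jtb had 2.43 and 2.70 in knockout and 3.43 and 3.47 in control testes (-0.89 ± 0.10, SE; limma adjusted p = 0.00577). RNaseX25, a secreted ribonuclease of the T2 family, had 2.54 and 2.65 against 3.44 and 3.43. CG7506 and CG42591 were also among the 25 largest falls. Of the 25 largest rises 9 overlap another annotated gene, and of the 25 largest falls 14. The use of strand in assigning reads is not stated, so values of overlapping genes, Mccc1 and RNaseX25 among them, are uncertain. Over all 167 changed genes the share that overlaps another gene was 47.3%, against 53.6% of all genes placed in the annotation.

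**Figure D2:**
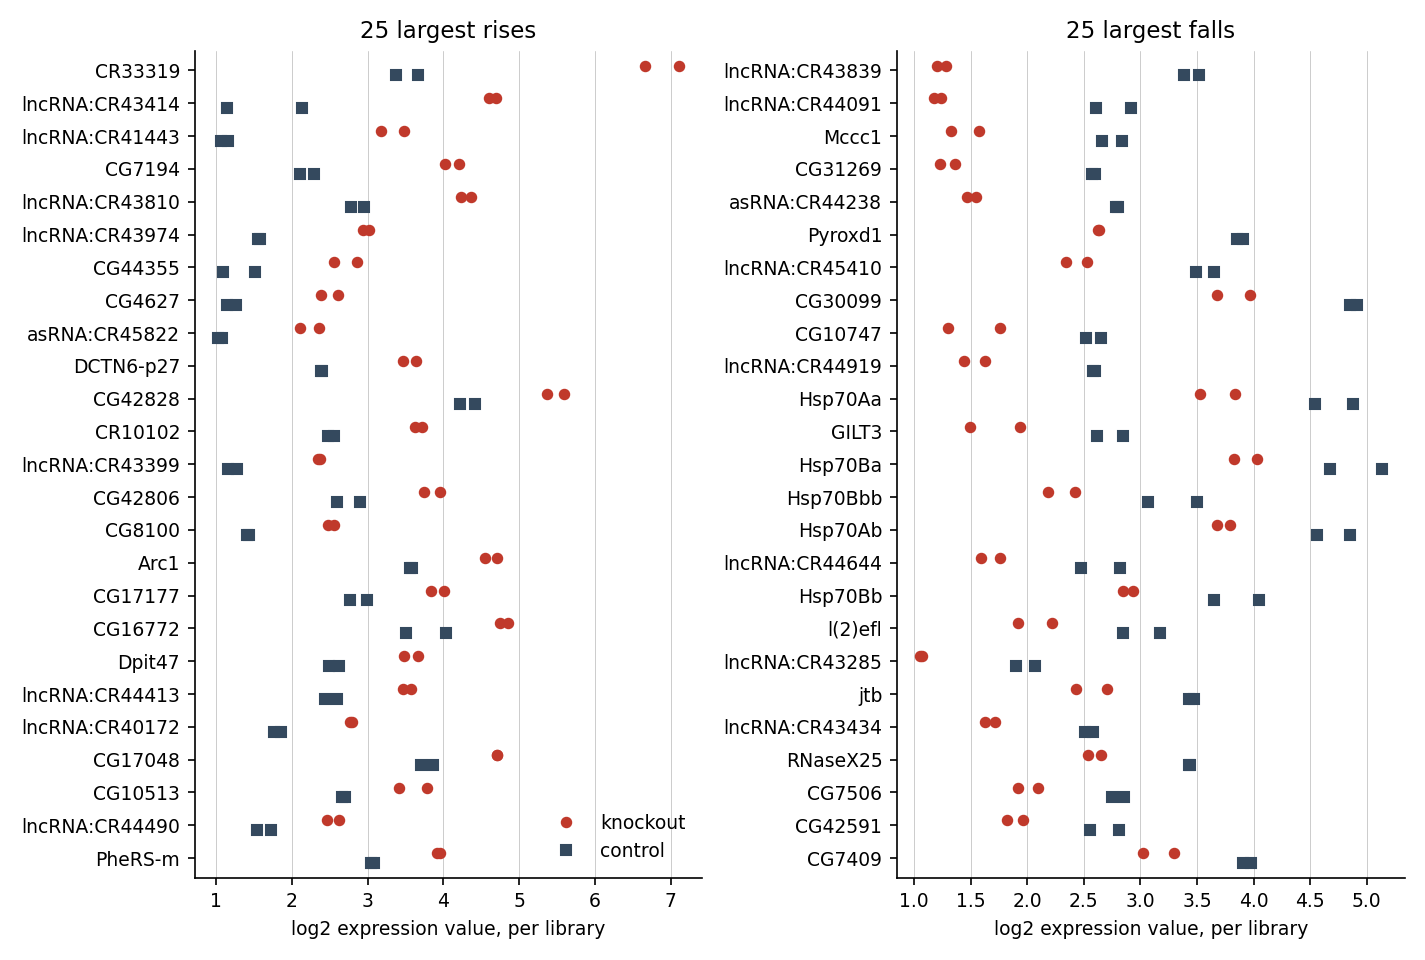
Log2 expression value in each library for the 25 largest rises (left) and the 25 largest falls (right) past the limma threshold, knockout as red circles and control as dark squares, with genes ordered by fold change. In every gene shown both knockout libraries lie on one side of both control libraries, from CR33319 at 6.66 and 7.12 against 3.37 and 3.66 to lncRNA:CR43839 at 1.28 and 1.20 against 3.39 and 3.52.

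Long non-coding RNAs were 21.6% of the changed genes and 4.90% of the genes tested. Of 359 measured lncRNAs 17 rose and 19 fell, which is 10.0%. Of 6494 protein-coding genes 50 rose and 67 fell, which is 1.80%. Of 47 pseudogenes 5 rose and none fell (10.6%, against 2.28% of all genes), and of 246 antisense RNAs 4 rose and 3 fell (2.85%). lncRNAs, antisense RNAs and pseudogenes together are 8.90% of the genes tested and 43.8% of the 32 genes that differed by at least 2-fold. Their median log2 fold change was -0.03, against -0.01 over all genes. Without control replicate 1 73 lncRNAs were called, and 59 with control replicate 2 left out, and those among antisense RNAs 13, 17 and 4 without control replicate 1, control replicate 2 and knockout replicate 1.

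The shares were also counted within classes of level. With a mean log2 value between 1 and 2, 7.81% of lncRNAs and 0.904% of coding genes were called. Between 2 and 3 the shares were 11.7% and 2.08%, between 3 and 4 they were 13.3% and 2.24%, and between 4 and 6 they were 9.09% (2 of 22 lncRNAs) and 2.25%. Above 6, 0 of 14 lncRNAs and 1.01% of coding genes were called. Replicates of lncRNAs differed more than those of coding genes, by a median of 0.13 against 0.10 between knockout libraries and 0.13 against 0.08 between control libraries. The difference between the classes was not tested.

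All of the 5 pseudogenes that rose are outside the X chromosome, as are all but 2 of the 167 changed genes. Beside CR33319 and CR10102 they are CR33255, CR30374 and CR42842. CR33255 had log2 values of 4.39 and 4.68 in knockout and 3.85 and 3.56 in control testes. The other rises were small and close to the threshold, in CR30374 by 0.47 ± 0.09 (SE, limma adjusted p = 0.0496) and in CR42842 by 0.34 ± 0.06 (adjusted p = 0.0436). Pseudogenes can share reads with the genes they copy, and 4 of the 5 overlap another annotated gene, CR10102 being the exception.

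Few of the changed genes lie on the X chromosome. Of 994 measured genes on the X chromosome 2 changed (0.201%), against 163 of 6129 (2.66%) on the large autosome arms together. By arm these were 44 of 1447 genes on 2L (3.04%), 42 of 1456 on 2R (2.88%), 43 of 1452 on 3L (2.96%) and 34 of 1774 on 3R (1.92%). The miR-983 genes lie on the X. No gene among 36 on chromosome 4 or 11 on the Y passed the limma test, and 4 and 1 of them had an unadjusted p under 0.05. This comparison was made after the data were seen, and the difference between the X and the autosomes was not tested.

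The 2 changed X-linked genes moved in opposite directions. Tsf1, the iron-binding transferrin of the haemolymph, had log2 values of 5.97 and 6.32 in knockout and 5.39 and 5.29 in control testes (0.80 ± 0.11, SE; limma adjusted p = 0.0103). CG14811 had 1.34 and 1.31 in knockout and 1.83 and 1.77 in control testes (-0.48 ± 0.09; adjusted p = 0.0485), and its call was lost in 3 of the 4 fits that left out a library. Next by p on the X was the annotated microRNA gene mir-4961, with 2.19 and 2.45 in knockout and 1.88 and 1.58 in control testes (0.59 ± 0.13; adjusted p = 0.0819).

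The X and the autosomes also stood apart in measures that need no adjusted p. An unadjusted p under 0.05 was reached by 4.53% of X-linked genes and 14.1% of autosomal ones, and the genotypes did not overlap in 31.9% and 44.2%. The median size of the log2 fold change was 0.06 on the X and 0.08 on the autosomes. Replicates differed slightly more on the X, by a median of 0.109 between knockout libraries and 0.0840 between controls, against 0.0972 and 0.0782 on the autosomes, and the median level was 2.99 against 3.26. The adjusted calls given above can also be split by class. Among coding genes alone their shares were 0.218% and 2.04%, and among lncRNAs they were 0 of 38 and 36 of 319 (11.3%). Without control replicate 1, 12 X-linked and 266 autosomal genes were called, and without control replicate 2, 12 and 242. Without knockout replicate 1 the counts were 1 and 138, and without knockout replicate 2 they were 2 and 114. A DESeq2 mark for a p under 0.05 is carried by 1 X-linked and 117 autosomal genes, by the authors' deposited table.

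**Figure D3:**
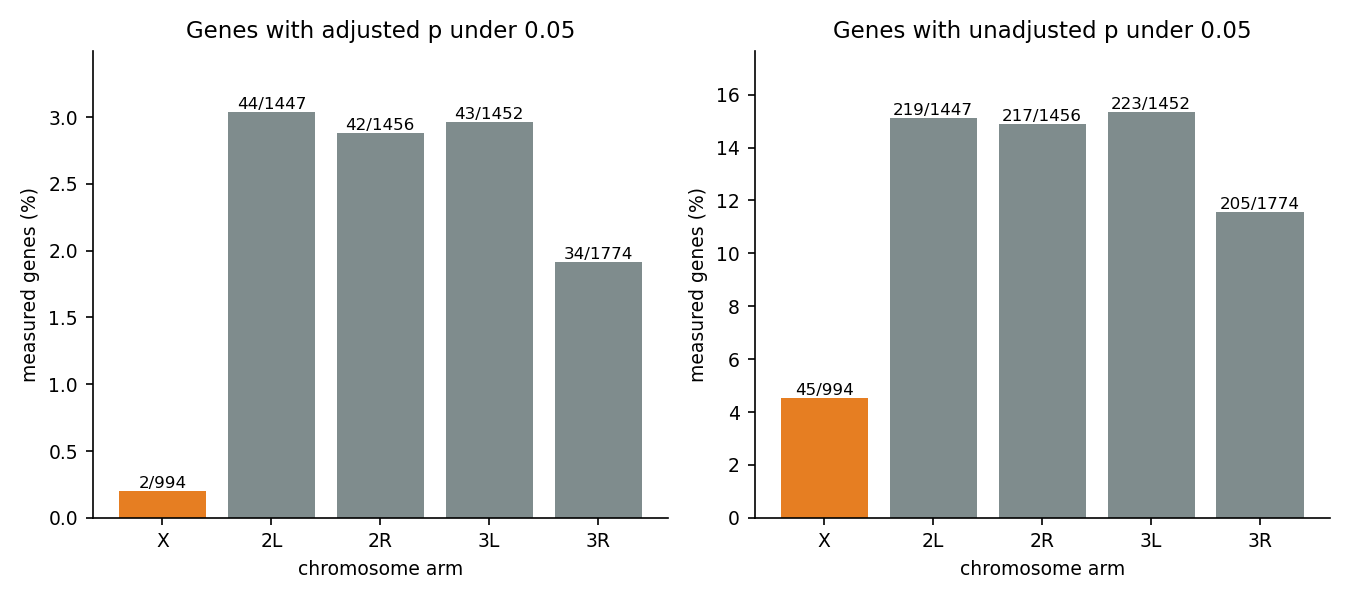
Share of measured genes (%) with a limma adjusted p under 0.05 (left) and an unadjusted p under 0.05 (right), knockout against control, on the X (orange) and on each large autosome arm (grey), with the number of genes over each bar. The X bar is the lowest in both panels, at 0.201% and 4.53%, and 3R is the lowest of the autosome arms at 1.92% and 11.6%.

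Direction also varied between the arms. On 2R 25 genes rose and 17 fell, and on 3R 9 rose and 25 fell, a group that includes the 5 Hsp70 copies. On 2L 21 rose and 23 fell, and on 3L 21 rose and 22 fell. The median log2 fold change over all genes of these arms lay between -0.0138 and -0.00835.

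Some of the changed genes lie beside one another. Of the 167 changed genes 32 (19.2%) have a changed gene as the next measured gene on either side, against 4.13% of the 7028 placed genes that did not pass. This difference was not tested. Changed genes form 18 pairs that overlap or are consecutive among the measured genes, of which 14 moved in the same direction and 4 in opposite directions. The same-direction pairs include neighbours among the Hsp70 copies, Hsp67Bc with CG4456, CG4456 with Hsp22, Hsp22 with Hsp26, and Prosalpha1 with Prosalpha1R. Hsp70 copies can share reads, as may the Prosalpha1 copies, and CG4456 overlaps Hsp22, so the pairs are not independent of one another. Arc1, whose protein forms virus-like capsids that carry RNA between cells, had log2 values of 4.55 and 4.71 in knockout and 3.58 and 3.56 in control testes, and the pseudogene CR10102 beside it had 3.62 and 3.72, against 2.55 and 2.48. Both rose by a similar amount, 1.06 ± 0.08 and 1.15 ± 0.08 on the log2 scale (SE; limma adjusted p = 0.000748 each). CG42806 and its neighbour PheRS-m, the mitochondrial phenylalanyl-tRNA synthetase, rose by 1.10 and 0.87.

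Other same-direction pairs were the lncRNAs lncRNA:CR44412 and lncRNA:CR44413, which rose by 0.56 and 1.01, and CG10747 and Pyroxd1, which fell by 1.06 and 1.26. CG31269 and asRNA:CR44238, which overlap, each fell by 1.29, and CG3528 and asRNA:CR46069, which also overlap, fell by 0.64 and 0.63. Reads of overlapping genes cannot be told apart without strand. Of the opposite pairs, CG42591 fell by 0.79 next to lncRNA:CR43974, which rose by 1.41. NLaz, a lipocalin that carries lipids, rose by 0.62 next to CG14346, which fell by 0.54. CG15233 rose by 0.50 next to lncRNA:CR43905, which fell by 0.39, and lncRNA:CR44300 rose by 0.80 next to lncRNA:CR43605, which fell by 0.52. In stretches of 50 consecutive measured genes, a description chosen after the data were seen, 70 of 140 held 0 changed genes and 8 held 5 or more, up to 7 on 2L between CG31697 and CG2611.

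Among the gene lists, those of the heat-shock genes held the most falls. Heat-shock proteins are chaperones, and the inducible ones are switched on by heat and other stress. Of 9 measured inducible heat-shock genes 7 fell and none rose, with a median log2 fold change of -0.96. Of 10 small heat-shock genes 7 fell and none rose, with a median of -0.43. Over all genes 1.23% fell and the median was -0.01. Of 27 constitutive chaperone genes none passed, 3 had an unadjusted p under 0.05, and the median was -0.01. The heat-shock genes were already known from earlier results of these data to be lower.

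Single libraries showed the separation of the genotypes. Hsp70Ab had log2 values of 3.79 and 3.68 in knockout and 4.57 and 4.85 in control testes (-0.97 ± 0.10, SE; limma adjusted p = 0.00326). Hsp70Ba had 3.82 and 4.03 against 4.68 and 5.13. The 5 Hsp70 copies have near-identical sequences that can share reads, so they are not independent of one another. Their control libraries differ by 0.28 to 0.46 and their knockout libraries by 0.09 to 0.31, which is less than the gap between the genotypes. Hsp70Bbb lost its call without 1 library (adjusted p = 0.0547).

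Genes with sequences of their own fell as well. Hsp68 had 5.24 and 5.16 in knockout and 5.74 and 5.71 in control testes. stv, the BAG-domain co-chaperone of Hsp70, had 2.28 and 2.24 against 2.97 and 2.94. The small heat-shock gene l(2)efl, a relative of alpha-crystallin, had 2.22 and 1.92 against 3.17 and 2.84 (-0.94 ± 0.14; adjusted p = 0.0159), and CG7409, of the same family, had 3.30 and 3.02 against 3.97 and 3.91 (-0.78 ± 0.10; adjusted p = 0.00899). Both overlap another annotated gene, as does Hsp68. CG4456, also known as Hsp67Bb, had 4.69 and 4.73 against 5.19 and 5.10. It overlaps Hsp22, and reads of these genes cannot be told apart without strand. Hsp67Bc, CG4456, Hsp22 and Hsp26 follow one another on 3L and all fell, while Hsp67Ba was at -0.16 ± 0.10 (adjusted p = 0.605) and CG14207, which is near the floor, at -0.18 ± 0.09 (adjusted p = 0.528). Averaged over the inducible list, the level was 4.18 and 4.12 in knockout and 4.77 and 4.97 in control testes, and over the small heat-shock list it was 4.03 and 3.99 against 4.54 and 4.45.

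**Figure D4:**
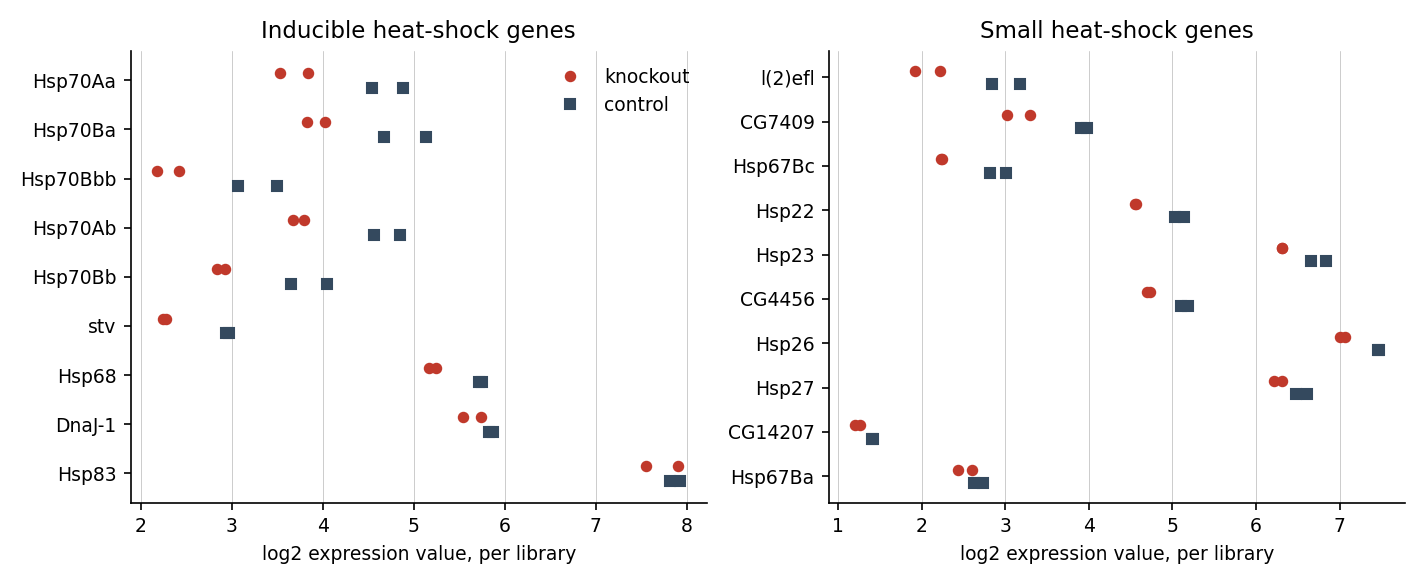
Log2 expression value in each library for the inducible (left) and small (right) heat-shock genes measured, knockout as red circles and control as dark squares, ordered by fold change from top to bottom. Both knockout libraries lie below both controls in 8 of the 9 inducible genes, Hsp83 being the exception, and in all 10 small heat-shock genes.

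Of 48 proteasome genes 3 rose and none fell (6.25%, against 2.28% of all genes), with a median of -0.01. Prosalpha1, a subunit of the proteasome core, had log2 values of 5.87 and 5.98 in knockout and 5.18 and 5.21 in control testes, and its near-identical neighbour Prosalpha1R had 5.90 and 5.95 against 5.24 and 5.26. Reads of these copies may be shared, so they may stand for 1 change. Prosbeta4R2 rose by 0.51 ± 0.07 (SE; limma adjusted p = 0.00899). Of 22 redox genes 3 fell and none rose (13.6%), with a median of -0.01. Neither share was tested against that over all genes. Pyroxd1, a predicted oxidoreductase, had 2.62 and 2.63 in knockout and 3.86 and 3.91 in control testes. GILT3, of the lysosomal thiol reductase family, had 1.50 and 1.94 against 2.61 and 2.85, and Sod3, the extracellular superoxide dismutase, fell by 0.53 and lost its call in 3 of the 4 fits without a library.

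Of 21 genes of zinc, copper and iron handling 2 rose and none fell (9.52%, against 2.28% of all genes, not tested), and the median was 0.07. These were Tsf1, above, and the zinc importer foi, with 2.09 and 2.24 in knockout and 1.39 and 1.31 in control testes. The metallothionein MtnA had 7.53 and 7.65 against 7.17 and 7.30 and did not pass (0.35 ± 0.07, SE; limma adjusted p = 0.0661). Of 22 dynein and dynactin genes 1 rose and 1 fell (9.09%, not tested): DCTN6-p27 had 3.47 and 3.64 in knockout and 2.40 and 2.38 in control testes, and DCTN1-p150, the large dynactin subunit, had 1.91 and 1.86 against 2.54 and 2.51. Of 23 tubulin, axoneme and basal body genes Poc1, a centriole protein, fell by 0.44 (SE 0.06; adjusted p = 0.0103). None of 22 genes of glycolysis and trehalose, 17 of detoxification and 21 testis paralogs of oxidative phosphorylation subunits passed, and 2, 1 and 3 of them had an unadjusted p under 0.05. Nor did any of 6 genes of the nutrient and insulin response, 3 of the circadian clock or 2 immune genes pass, with 0 at an unadjusted p under 0.05, or any of 3 Y-linked genes, with 1 at that p. Ldh, lactate dehydrogenase, was at 0.56 ± 0.13 (adjusted p = 0.0824).

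Hardly any member of the lists of sperm formation that follow passed the test. Meiotic arrest genes switch on the transcription of sperm genes in spermatocytes. Of 17 measured, 1 rose, none fell and the median was -0.05. An unadjusted p under 0.05 was reached by 5 of them (29.4%, against 12.7% of all genes), the genotypes did not overlap in 12 (70.6%, against 42.3%), and the log2 fold change was above 0 in 2. These shares were not tested. The bromodomain gene tbrd-3 had log2 values of 4.34 in each knockout library and 3.99 and 3.89 in control testes (0.40 ± 0.07, SE; limma adjusted p = 0.0294), and it lost its call in 3 of the 4 fits without a library. The arrest gene aly was at -0.08 ± 0.09 and can at -0.00 ± 0.09 (SE). None of 20 genes of meiotic entry and division, 9 early germline genes, 21 late-transcribed comet and cup genes, 15 sperm chromatin genes, 33 sperm tail genes or 28 genes of spermatid individualization and mitochondria passed the limma test. An unadjusted p under 0.05 was reached by 2, 1, 1, 3, 2 and 3 of them in that order. Their medians lay between -0.09 and 0.05. With 2.28% of all genes called, lists of this size can hold 0 calls without standing apart.

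Of 27 genes of the small RNA pathways tud fell, the gene of Tudor, a scaffold of germ granules, with 2.88 and 2.84 in knockout and 3.45 and 3.27 in control testes (-0.50 ± 0.09, SE; limma adjusted p = 0.033). Its call was lost in 3 of the 4 fits without a library. Of 16 testis paralogs of ribosomal proteins RpL22-like and RpL37-2 fell, by 0.46 and 0.32 (12.5%, against 2.28% of all genes, not tested). RpL22-like lost its call in 1 such fit and RpL37-2 in all 4. None of 16 genes of dosage compensation and chromatin passed, where 1 had an unadjusted p under 0.05, and the median was 0.02.

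A few more changed genes, in none of these lists, were chosen after their values were seen and stand for no group. Taf11, a subunit of the initiation factor TFIID, had 2.15 and 1.94 in knockout and 1.41 and 1.44 in control testes. Polr2J, a subunit of RNA polymerase II, had 2.81 and 2.84 against 2.30 and 2.29, and Kdm4A, a histone demethylase, had 3.05 and 2.97 against 2.48 and 2.32. MED17, a subunit of the Mediator complex, had 2.00 and 1.90 in knockout and 2.71 and 2.68 in control testes, the reverse direction (-0.75 ± 0.09, SE; limma adjusted p = 0.00634). crc, the fly ATF4 and a regulator of the stress response to amino acid lack, rose by 0.42 ± 0.07 (adjusted p = 0.0294). Of these 5 genes only MED17 kept its call in all 4 fits without a library. It overlaps another gene, as do Polr2J and crc.

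Of 14 transcripts of the mitochondrial genome, a list chosen after the data were seen, mt:ATPase6 and mt:ND4 fell, none rose, 7 had an unadjusted p under 0.05 and the median was -0.20. Their mean level was 6.58 and 6.60 in knockout and 6.67 and 6.86 in control testes, so control replicate 2 stood furthest from the others. mt:ND4 had log2 values of 6.44 and 6.49 in knockout and 6.81 and 6.83 in control testes (-0.35 ± 0.06, SE; limma adjusted p = 0.0251), and its call was lost in 2 of the 4 fits without a library, that of mt:ATPase6 in 3. mt:CoI was at -0.27 ± 0.09 and the ribosomal transcript mt:lrRNA at -0.17 ± 0.13, and neither passed. Nuclear ribosomal RNA genes and their pseudogenes gave another pattern, in which single libraries and not the genotype set the order. Their mean level was 3.70 and 3.04 in knockout and 3.16 and 3.95 in control testes, so knockout replicate 1 and control replicate 2 were high, and none of 16 passed. Whether their level bears on any other result was not tested. Of 5 measured histone genes His2A:CG31618 fell by 0.31 and lost its call in 3 of the 4 fits without a library. Of 87 cytoplasmic ribosomal protein genes 2 fell, both of them paralogs named above, and the median was -0.01. Among 20 small non-coding RNA genes the spliceosomal snRNA:U1:21D rose by 0.72 ± 0.09 (adjusted p = 0.00634), and snoRNA:Or-CD8, which overlaps another gene, fell by 0.66 (SE 0.08; adjusted p = 0.00643).

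Markers of other tissues were sparse in the table, and in bulk samples fewer cells of a type and less RNA per cell cannot be told apart. Of 18 fat body markers 4 were measured, and NLaz and Tsf1 rose, whereas Obp44a, at -0.00 ± 0.10, and Obp99a, at 0.02 ± 0.08 (SE), did not pass. The mean of the 4 was 6.78 and 7.01 in knockout and 6.53 in each of the control libraries. Of 31 accessory gland markers 1 was measured, Acp95EF, with 4.42 and 6.34 in knockout and 4.16 and 4.12 in control testes (limma adjusted p = 0.343). It is high in knockout replicate 2, the library that is also the higher of the knockout pair for Tsf1 and NLaz. This order is not particular to these markers. It was also seen in rises such as CR33319, CG7194 and Arc1, and the reverse in others such as CG10513. Acp95EF was the single gene with a difference of at least 2-fold that did not pass. The ejaculatory duct marker EbpIII had 4.32 and 4.44 in knockout and 4.11 and 4.03 in control testes (adjusted p = 0.0889). Amy-p, an amylase of the gut, fell by 0.41 (SE 0.07; adjusted p = 0.0245), and Ance, a peptidase found in several epithelia, fell by 0.38 (SE 0.07; adjusted p = 0.0357). Amy-p lost its call in 2 and Ance in 3 of the 4 fits without a library. None of 8 measured markers of cyst cells and hub, 10 of muscle and sheath, 3 of blood cells or 2 of neural cells passed, and 1 in each list had an unadjusted p under 0.05. The part of other tissues in the results was not tested.

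A microRNA lowers its targets, so targets would be higher where it is lost, and the deposited predictions let this be examined. The authors' deposited table marks 852 of the measured genes as predicted targets of a miR-983 arm in at least 1 of 3 sets. Of these 5 rose and 8 fell (1.53% called), against 72 rises and 82 falls among the 6474 other genes (2.38%). The targets had a lower median level, 2.73 against 3.31, and the share called varied with level. Over all genes it was 1.54% at mean log2 values of 1 to 2, 3.02% at 3 to 4 and 0.962% above 6. The median log2 fold change was -0.0046 in the targets and -0.0124 in the other genes. Of 95 genes that both programs predict for miR-983-5p 1 rose and 1 fell, with a median of 0.0029. Of 29 genes in all 3 sets, foi rose and tud fell. Neither the shares nor the medians were tested against each other. The falls numbered 2 in the miR-983-3p set and 1 in the PITA set without either knockout library, against 4 and 3, and 5 in the miR-983-5p TargetScan set without control replicate 2, against 3.

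The predicted targets that changed moved in both directions by similar sizes. CG17048, a TargetScan target of miR-983-5p, had log2 values of 4.71 and 4.70 in knockout and 3.86 and 3.71 in control testes. CG2617, a target of miR-983-3p, had 3.04 and 2.93 against 2.12 in each control. CG9391 and mfas rose by 0.39 each, and each lost its call in 1 of the 4 fits without a library. Of the falls, CG31677, a PITA target of miR-983-5p, had 4.08 and 4.13 in knockout and 4.66 and 4.86 in control testes. Hsp23, Hsp67Bc, Pyroxd1, RNaseX25, DCTN1-p150, CG14811 and tud were the other 7. Of these, Hsp23, CG14811 and tud did not keep their calls in every fit without a library. In those fits the log2 fold change of Hsp23 lay between -0.53 and -0.35. The log2 fold changes of the targets had quartiles of -0.0708 and 0.0505, against -0.0910 and 0.0610 in the other genes.

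**Figure D5:**
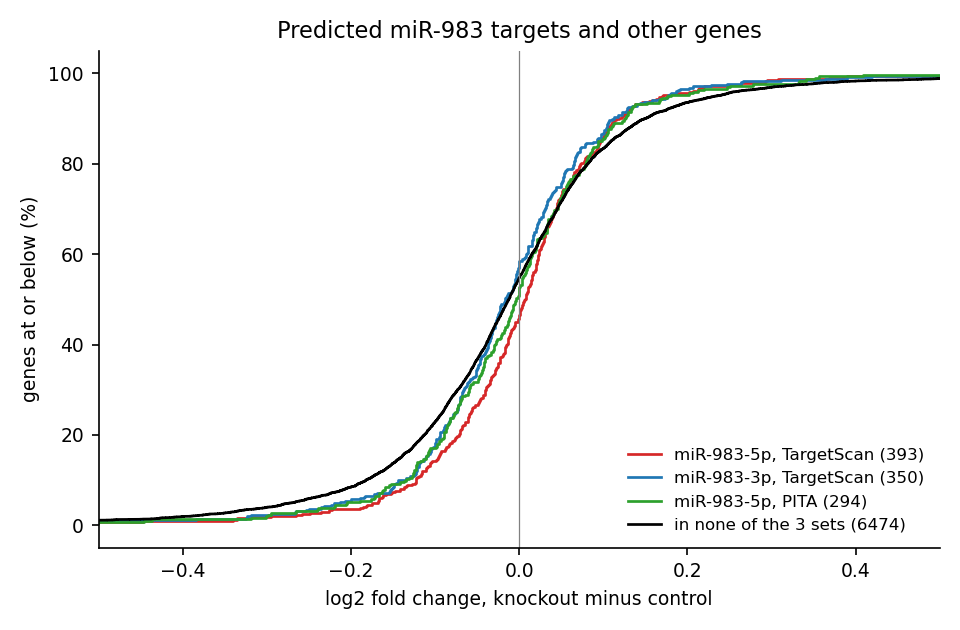
Cumulative share of genes (%) at or below a given log2 fold change, knockout minus control, for the 3 sets of predicted miR-983 targets and for the 6474 genes in none of them. The 4 lines cross near 0, with medians of 0.0065, -0.0166, -0.0037 and -0.0124 for miR-983-5p by TargetScan, miR-983-3p by TargetScan, miR-983-5p by PITA and the other genes.

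The 4 measured genes nearest to miR-983 on either side did not pass the test. NO66 had log2 values of 3.00 and 3.01 in knockout and 3.06 and 3.15 in control testes, and CG12693 had 5.02 and 5.00 against 4.95 and 4.96. The other 2, rb and CHOp24, had limma adjusted p-values above that of NO66, which was 0.708.

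The calls overlapped in part with those of the authors. A DESeq2 mark for a p under 0.05 is carried by 121 genes (1.65%) of the authors' deposited table, 61 higher and 60 lower in the knockout. Of these 106 are among the 167 called here, which is 87.6% of their list and 63.5% of this one. The 61 genes called here alone had a median log2 level of 2.58, against 3.71 for the shared ones. Ldh and MtnA are among the 15 marked in the authors' deposited table alone.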

How the data were processed

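RNA-seq values of 2 knockout and 2 control testis libraries of D. melanogaster were used, all 7326 genes. The authors deposited log2 expression values, 1 column per library, per the file headers, and reads were aligned with TopHat, version unnamed, per the submitters' processing notes. The quantity under the logarithm, any pseudocount, the counter, the genome build, the annotation, strand and shared reads were not given in the sources used here. Depth is unknown. Values below the floor of 1 are not listed, and fold changes on this scale can understate those of low genes. No column was left unmapped (0 columns).

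Knockout and control were compared by limma (version 3.58.1, R 4.3.3) with a trended empirical Bayes prior and genotype as the only term, two-sided, Benjamini-Hochberg adjusted over all 7326 genes, threshold 0.05. Log2 fold changes are knockout mean minus control mean, and ± after them is the moderated SE of limma. This SE and the p-values rest on the spread between 2 libraries of a genotype, drawn toward a trend fitted over all genes. The fit had 2 residual and 5.65 prior degrees of freedom, so ± is not the replicate spread of a gene alone. An exact permutation test of 2 against 2 cannot give a p below 0.333 and was not used. The script was tested on simulated data with known changes. Alternatives were no trend, robust variances, median centring, quantile normalization, a mean log2 value of at least 2, a replicate block and leaving out each library.

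Of the identifiers 7195 matched a symbol and 131 did not. Gene class, arm, overlap and gene order came from assembly Release 6 plus ISO1 MT, and no coordinates from it are given. Genes were named if they were among the 25 largest rises or falls, were changed members of 36 gene lists or the members with the smallest p, were changed predicted targets, formed 1 of 15 pairs of changed neighbours, or lay beside miR-983. The 3 other pairs, 5 lists by name pattern (mitochondrial genome, histones, ribosomal RNA, cytoplasmic ribosomal proteins, small non-coding RNAs) and the counts by arm and stretch were added after the values were seen. The lists and the rule were chosen with earlier results of these data known. The DESeq2 marks and target predictions are those of the authors' deposited table. Lists are described by counts and medians without a set test.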

Additional observations from a re-analysis of the deposited data

How the results depend on the processing

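Under the settings tried, 0 named genes turned round, and of 761 values of named genes 719 kept their side of the threshold and 42 did not pass. Both statements cover 77 of the named genes only. Others named above are outside them, among these CR30374, CR42842, Polr2J, mt:ATPase6 and His2A:CG31618. That 0 genes turned round says little for changed genes. In each of these both knockout libraries lie on one side of both controls, so leaving out 1 library cannot turn the direction. The variance settings, the filter on low values and the replicate block do not alter the fold change. The count of changed genes was 133 without the variance trend, 192 with robust variances, 185 after median centring, 149 after quantile normalization and 145 with a mean log2 value of at least 2, all within 1.5 times of 167. The share of rises among the calls was 46.1%, and 50.8% after median centring, which moved the median of all genes from -0.0113 to 0.00406. Calls among pseudogenes fell to 3 without the trend and after quantile normalization, against 5. On the X 1 gene was called after quantile normalization and with the filter on low values, which also left 0 rises among the PITA targets.

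Leaving out 1 library gave between 118 and 304 calls, 47 to 131 rises, 66 to 184 falls and 29 to 38 changes of at least 2-fold. By class it gave 78 to 177 coding genes, 29 to 73 lncRNAs and 4 to 17 antisense RNAs, and by chromosome 1 to 12 genes on the X and 114 to 266 on the autosome arms. Among targets it gave 3 to 5 falls for miR-983-5p by TargetScan, 2 to 6 falls for miR-983-3p, and 1 to 3 falls and 1 to 2 rises for the PITA set. These fits have 1 residual degree of freedom and take the lone library to vary like the other genotype. Without either control library limma estimated an infinite prior, so that each gene's own spread did not enter, and the calls kept there say little of single genes. Depth limits precision by an amount that is unknown.

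With a replicate block 503 genes were called, 213 higher and 290 lower, among them all 167. By class these were 365 coding genes, 90 lncRNAs and 26 antisense RNAs, with 16 genes on the X and 473 on the autosome arms. The target sets had 7 rises and 7 falls (miR-983-5p by TargetScan), 7 and 9 (miR-983-3p) and 5 and 7 (PITA). The libraries share only a number: with 2 pairs the correlation of deviations of same-numbered libraries, 0.147, cannot show a pairing.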
